A study of Mus musculus with 37 samples.

Results

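The cell cycle and mitosis genes described here are 44 named genes, chosen by symbol, among the 24421 gene symbols measured in mouse lung. All 44 were present in the count table, and all 44 passed the filter on low counts. They form 2 classes: 30 mitotic genes, whose products drive or carry out chromosome segregation and cell division, and 14 S-phase genes, whose products copy DNA or prepare for it. RNA was sequenced from lung tissue of 37 C57BL/6 mice, 1 library per mouse. A silicon + NR group (6 mice) and a silicon group (7 mice) received 0.75 Gy of Si ions at 300 MeV/U. A GCR group (7 mice) received 0.75 Gy of a 5-ion beam that simulates galactic cosmic radiation, and a gamma group (5 mice) received 0.75 Gy of 137-Cs gamma rays. The mock + NR group (5 mice) and the mock group (7 mice) received 0 Gy. Mice of the NR groups drank 12 mM nicotinamide riboside, a precursor of the coenzyme NAD, from before the exposure. By label, the groups held 22 males and 15 females. Gamma replicate 5, labelled female, went against its label, with 3.73 CPM of Xist, the RNA of the silenced X chromosome, and 87.6 CPM of the Y-linked Ddx3y. The 14 other libraries labelled female had at least 159.9 CPM of Xist and at most 0.633 CPM of Ddx3y, and the 22 labelled male at most 7.25 and at least 49.3 CPM. Sex entered every main fit as labelled, and the values that rest most on this library are given with and without it. The sources used here give neither age nor the time from exposure to dissection. Each mouse is a separate animal with its own ear tag, so the spread between libraries includes that between mice and between dissected pieces.

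A dividing cell switches on these genes in 2 waves. In the first, E2F transcription factors and cyclin E start DNA replication, for which the MCM helicase opens the double helix, PCNA clamps the polymerase and ribonucleotide reductase supplies nucleotides. In the second, FOXM1 and related factors raise cyclin B, CDK1, the Aurora and Polo kinases, spindle motors and checkpoint proteins, which build the spindle and divide the cell, and Mki67 encodes the Ki-67 protein used to mark dividing cells. Few cells of the adult lung divide at any moment, so these genes are usually scarce there. In bulk tissue, fewer dividing cells and less RNA of these genes per cell cannot be told apart.

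Promoters of 4 members are shown because the 2 classes differ in the sequence elements that their known regulators read. Of the 44 members, 37 had a promoter in the RefSeq table (GRCm38.p6, 250 bases before to 50 after the gene start, 25 mitotic and 12 S-phase members). Aurkb, Mcm4, Foxm1, Ccna2, Kif20a, Tpx2 and Ccne2 had none. The sequences run 5′ to 3′ on the strand of the gene. Capitals mark the cell cycle homology elements TTTGAA or TTTAAA, the CCAAT box, and the E2F site as TTTGGCG, with its variant TTTCGCG and its other form TTCCCGC. Each was searched on both strands, and overlapping matches are merged (in Mcm5, 2 E2F forms on opposite strands share bases).
Ccnb2, chr9:70421505-70421804, minus strand: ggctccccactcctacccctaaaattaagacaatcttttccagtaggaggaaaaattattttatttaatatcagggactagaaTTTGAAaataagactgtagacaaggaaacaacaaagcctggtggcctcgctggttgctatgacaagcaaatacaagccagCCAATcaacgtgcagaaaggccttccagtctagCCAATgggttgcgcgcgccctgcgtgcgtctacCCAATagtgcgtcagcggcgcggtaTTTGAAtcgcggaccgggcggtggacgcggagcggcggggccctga
Cdc20, chr4:118437294-118437593, minus strand: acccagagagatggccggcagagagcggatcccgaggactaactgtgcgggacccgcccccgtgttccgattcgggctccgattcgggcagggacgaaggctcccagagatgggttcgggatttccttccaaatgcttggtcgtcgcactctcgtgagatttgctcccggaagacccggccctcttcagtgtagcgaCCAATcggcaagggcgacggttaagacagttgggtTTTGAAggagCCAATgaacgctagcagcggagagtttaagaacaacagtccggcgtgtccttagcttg
Cdk1, chr10:69352863-69353162, minus strand: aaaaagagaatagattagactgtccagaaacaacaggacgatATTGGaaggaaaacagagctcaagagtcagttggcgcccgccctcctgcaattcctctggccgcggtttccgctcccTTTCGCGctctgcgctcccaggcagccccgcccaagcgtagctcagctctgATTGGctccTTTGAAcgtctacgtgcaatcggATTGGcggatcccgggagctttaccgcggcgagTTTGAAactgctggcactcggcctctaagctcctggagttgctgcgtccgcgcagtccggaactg
Mcm5, chr8:75109259-75109558, plus strand: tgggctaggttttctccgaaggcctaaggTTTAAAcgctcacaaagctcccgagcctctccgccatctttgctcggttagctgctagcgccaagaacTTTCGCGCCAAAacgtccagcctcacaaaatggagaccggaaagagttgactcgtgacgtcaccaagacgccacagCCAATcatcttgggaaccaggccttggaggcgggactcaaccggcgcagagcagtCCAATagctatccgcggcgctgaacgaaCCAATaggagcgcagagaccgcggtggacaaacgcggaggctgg
TTTGAA stood in the promoters of 18 of 25 mitotic members (72.0%) and of 1 of 12 S-phase members (8.3%, Mcm2), against 20.23% of all 27025 symbols with a promoter. One of the 3 E2F forms stood in 2 of 25 mitotic members (8.0%, Cdk1 and Cdca8) and in 6 of 12 S-phase members (Mcm3, Mcm5, Mcm6, Mcm7, Rrm1 and Uhrf1), against 7.64% of all symbols. TTTAAA was found in 7 mitotic (28.0%) and 4 S-phase members (33.3%), against 14.88% of all symbols. The CCAAT box was found in 22 mitotic members (88.0%) and 9 S-phase members (75.0%), against 41.06% of all symbols. Of these 4 promoters, that of Cdk1 holds both a TTTGAA and an E2F form, those of Ccnb2 and Cdc20 hold TTTGAA without an E2F form, and that of Mcm5 holds E2F forms without TTTGAA. A match is a description of the letters, not evidence of binding.

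Per kilobase of exon, the S-phase members were in general the more abundant class. Pcna, the polymerase clamp, was the highest of the 44 with a mean of 17 CPM (reads of a gene scaled to a common library total) per kb over the 37 libraries. Cdc20, which activates the ubiquitin ligase that ends mitosis, followed at 6.47 CPM per kb, before the helicase subunits Mcm4 at 5.30, Mcm6 at 5.22 and Mcm7 at 5.05 CPM per kb. The lowest were the checkpoint kinase Ttk at 0.27 CPM per kb, the cyclin Ccne2 and the transcription factor Foxm1, both at 0.46 CPM per kb. Both classes varied widely between mice, with overlapping ranges. The highest library had a median of 15.2 times the CPM of the lowest over the mitotic members, and of 9.21 times over the S-phase members. Mki67 stood near the middle of its class at 15.8 times. In the S-phase class the ratio ran from 4.01 for Pcna to 18.6 for Rrm2.

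The 37 libraries did not hold the same tissue. Total counts ran from 9485197 to 66381526, with a median of 28476462. Skeletal muscle actin, Acta1, exceeded 1000 CPM in 13 libraries (silicon + NR replicates 1 and 4, silicon replicates 2, 4, 5, 6 and 7, mock + NR replicates 2 and 5, and mock replicates 3, 4, 5 and 6), against at most 403 CPM in the other 24. The basal epithelial keratin Krt5 went with it: it was between 171 and 789 CPM in 12 of those 13 libraries (20.2 CPM in mock + NR replicate 5) and at most 44.8 CPM in the others. The lymphoid chemokine Ccl19 exceeded 100 CPM in silicon replicates 3 (447 CPM) and 6 (232 CPM) and in mock + NR replicate 4 (419 CPM). In silicon replicates 3 and 6 and mock + NR replicate 4, the B cell gene Ms4a1 was at 326, 135 and 104 CPM and the T cell gene Cd3e at 110, 47.3 and 54.2 CPM. Defining genes of thymocytes (Rag1, at most 0.48 CPM, and Ptcra, at most 0.207 CPM) and of granulocyte precursors (Mpo, at most 0.181 CPM, and Elane, at most 0.57 CPM) were at or near 0 in every library. Rn45s, the ribosomal RNA precursor, exceeded 100000 CPM in GCR replicates 2, 5 and 6 and mock replicate 4, and the heart gene Nppa exceeded 10000 CPM in gamma replicates 3 and 4.

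**Figure D1:**
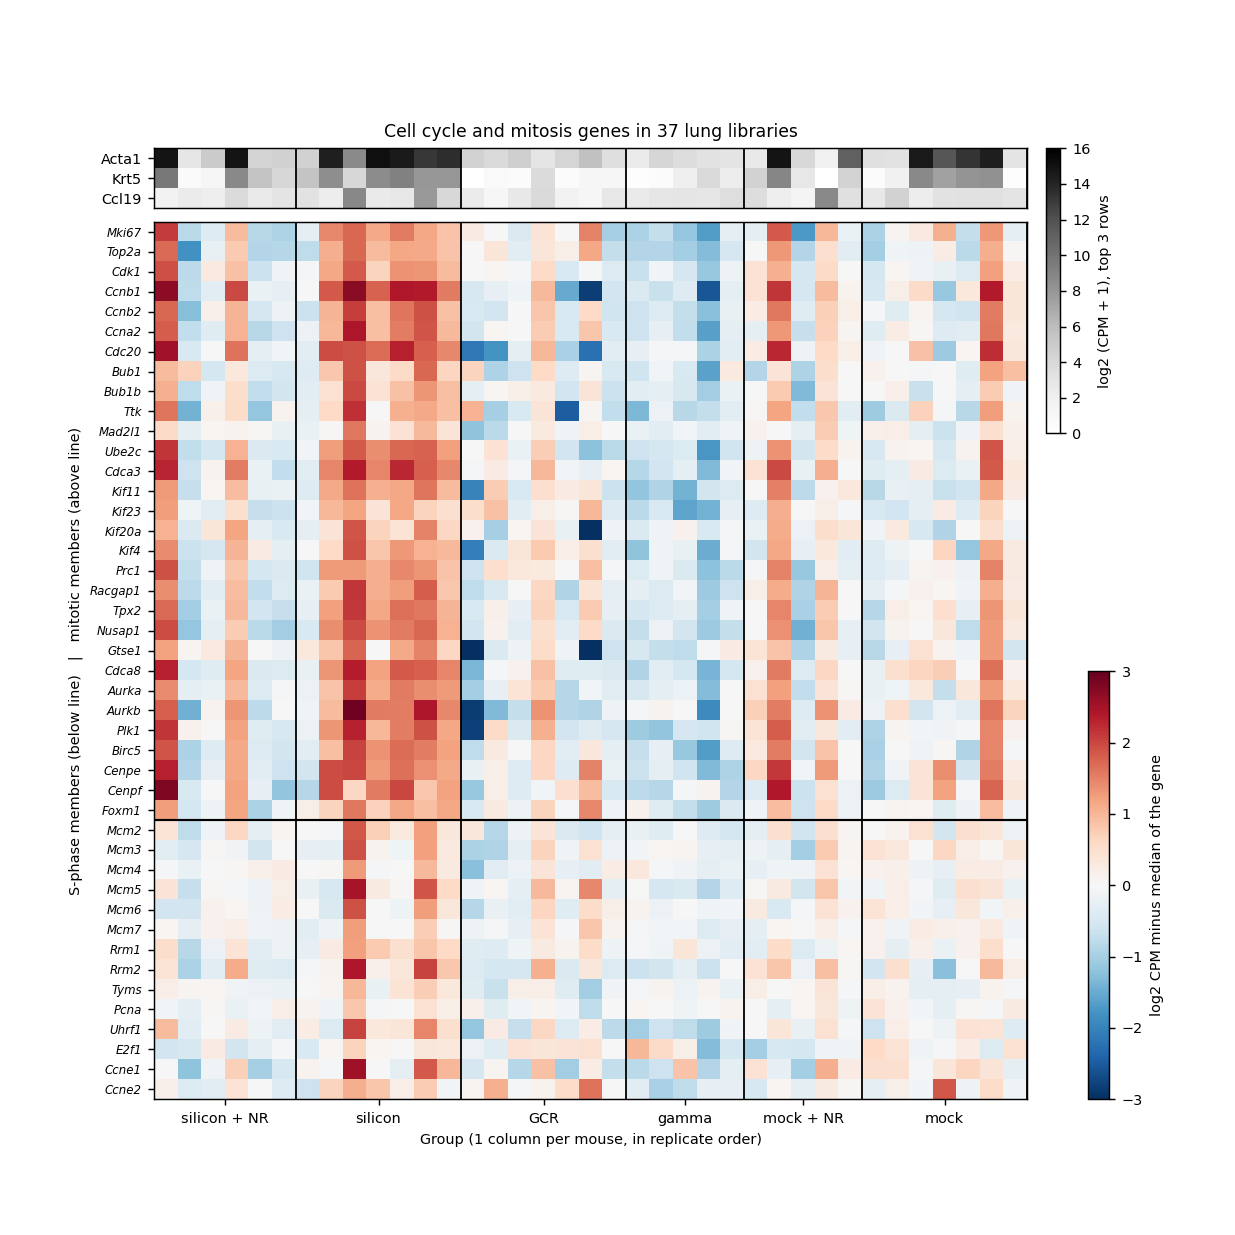
Each column is 1 of the 37 libraries, ordered by group, and each row 1 member: red and blue give log2 CPM above or below the median of that gene, and the top 3 rows give log2 (CPM + 1) of Acta1, Krt5 and Ccl19 in grey. Silicon replicates 3 and 6, with Ccl19 at 447 and 232 CPM, are red in both classes, while silicon + NR replicate 1, mock + NR replicate 2 and mock replicate 6, with Acta1 over 1000 CPM, are red mainly among the mitotic members.

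The 2 classes varied with different libraries. As the mean log2 CPM of its members, the mitotic class had a median of 3.09 (1.76 to 3.82) in the 13 libraries over 1000 CPM of Acta1, and of 1.73 (0.92 to 4.01) in the 24 others. The S-phase class differed less between those sets, with medians of 3.40 (3.23 to 4.42) and 3.16 (2.76 to 4.89). In the 3 libraries over 100 CPM of Ccl19, mock + NR replicate 4, silicon replicate 6 and silicon replicate 3, the S-phase means were 3.74, 4.42 and 4.89, against at most 3.79 (GCR replicate 4) in the other 34. The mitotic means of those 3 libraries were 2.72, 3.58 and 4.01, against at most 3.82 (silicon + NR replicate 1) elsewhere. Not every library with muscle RNA was high: mock + NR replicate 5 and mock replicates 3, 4 and 5, all over 1000 CPM of Acta1, had mitotic means between 1.76 and 2.16. Krt5 in mock replicate 3 was 426 CPM, above that of mock replicate 6 (303 CPM), whose mitotic mean was 3.42.

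**Figure D2:**
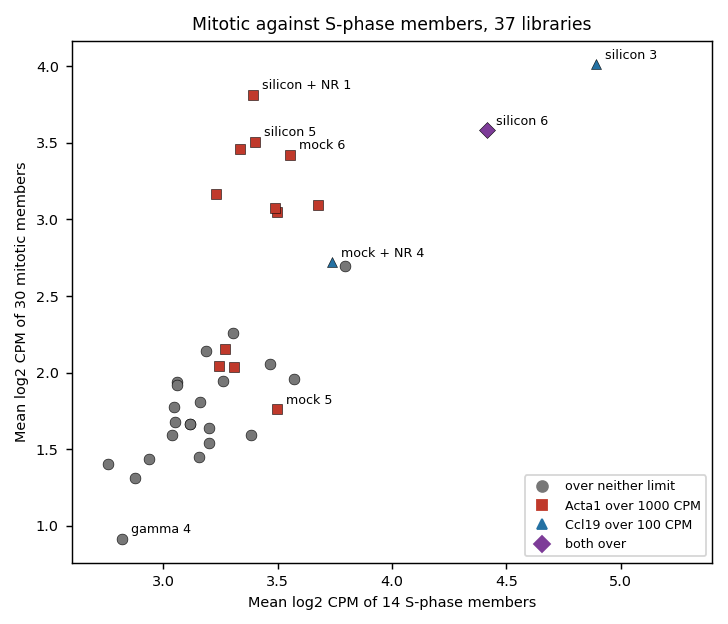
Each point is 1 library, with the mean log2 CPM of the 14 S-phase members on the x axis and of the 30 mitotic members on the y axis; the marker gives the tissue genes that exceeded their limit. Silicon replicates 3 and 6 lie to the right at S-phase means of 4.89 and 4.42, whereas silicon + NR replicate 1 (3.82), silicon replicate 5 (3.51) and mock replicate 6 (3.42) are high on the mitotic axis at S-phase means under 3.79.

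Gene by gene, the spread of both classes narrowed without the libraries over 100 CPM of Ccl19. The median coefficient of variation of the mitotic members was 61.5% without and 71.8% with them (lower without them for 25 of 30), and that of the S-phase members 32.4% without and 52.1% with them (lower for 13 of 14). Leaving out the 3 libraries over 100 CPM of Ccl19 lowered the coefficient of variation of Mcm5 to 40.3% from 83.7%, of Ccne1 to 50.1% from 91.4% and of Rrm2 to 47.9% from 85.6%. Among mitotic members, that of Aurkb was 70.4% without and 98.6% with them and that of Bub1b 41.7% without and 63.9% with them, while that of Mki67 was 72.6% without and 71.6% with them. E2f1 was the only S-phase member whose coefficient was not lower, at 40.9% without and 40.3% with them. Silicon replicate 3 was the highest library for 26 of 30 mitotic and 12 of 14 S-phase members.

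Mki67 and the other mitotic members varied together between libraries, and the S-phase members followed them less closely. Correlations of log2 CPM with Mki67 were computed for the 43 other members in each of 2 sets of libraries, since the libraries with and without muscle RNA stand apart. Each set pooled libraries of several groups, so the values include differences between groups as well as between mice. Among the 13 libraries over 1000 CPM of Acta1, the median Spearman's rho was 0.81 for the 29 mitotic members (Pearson's r 0.77) and -0.05 for the 14 S-phase members (r -0.00). Among the 24 others it was 0.59 for mitotic members (r 0.66) and 0.31 for S-phase members (r 0.58). By a two-sided permutation test with 100000 resamples, adjusted over the 43 relations of a set, rho passed for 26 mitotic and 2 S-phase members in the first set and for 24 mitotic and 5 S-phase members in the second. On Pearson's r the counts were 26 mitotic and 0 S-phase members in the first set and 24 and 10 in the second.

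Top2a, the topoisomerase that untangles chromosomes, was the member closest to Mki67 in the 24 libraries, at rho = 0.88 and r = 0.91 (adjusted permutation p = 0.000184 and 3.91e-05). In the 13 libraries its rho was 0.96 and its r 0.95 (adjusted permutation p = 0.000215 and 0.000108). Without the 2 libraries farthest from the median of Mki67, its r was 0.83 over 22 libraries and 0.88 over 11. Mcm5 had rho = 0.75 and r = 0.87 in the 24 libraries (adjusted permutation p = 0.000239 and 3.91e-05), and r = 0.76 without the 2 farthest. In the 13 libraries Mcm5 had rho = 0.04 and r = 0.03 (adjusted permutation p = 0.927 and 0.917, with r = 0.04 without the 2 farthest). Without the 2 farthest libraries, the median r of the mitotic members was 0.64 in the first set and 0.61 in the second, and that of the S-phase members -0.06 and 0.35.

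**Figure D3:**
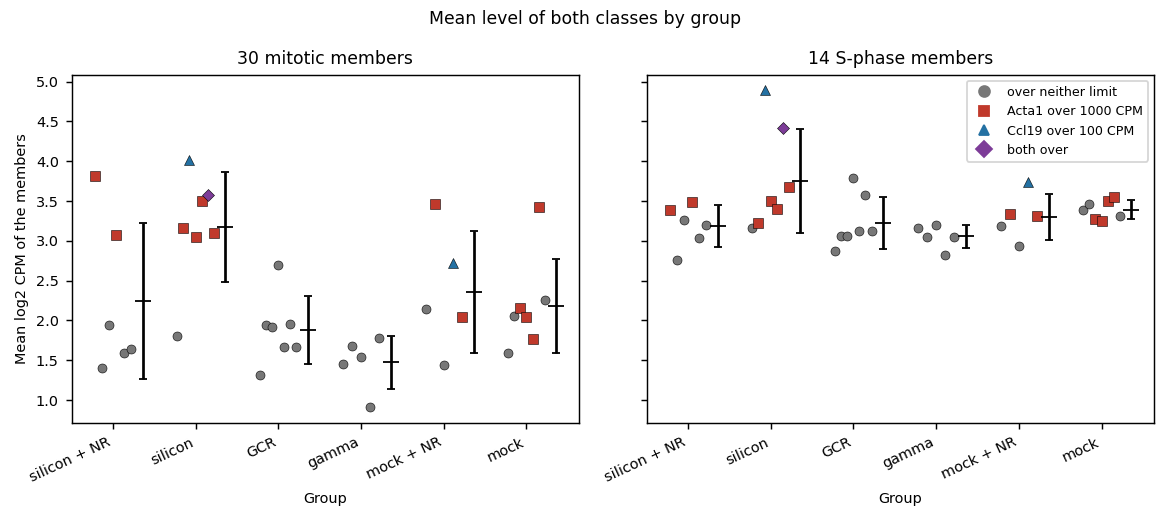
Points are libraries, bars the mean ± SD of a group, in log2 CPM averaged over the members of a class; marker shapes give the tissue genes over their limit. The silicon group averaged 3.17 for the mitotic class, against 2.18 in mock, with 6 of its 7 libraries over the limit of Acta1, Ccl19 or both.

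The comparison of silicon with mock asks whether Si ions left a difference in these genes. All 30 mitotic members were higher by value in silicon than in mock lungs, with a median log2 fold change of 0.99, and all 14 S-phase members, with a median of 0.47. For scale, the median over all 16977 genes tested was 0.07, and 59.6% of them were higher. No member passed the test: edgeR's quasi-likelihood test called 0 of 44 at an adjusted p under 0.05, against 0.0% of all genes in either direction, and 0 were called by DESeq2 (against 0.518% of all genes higher and 1.99% lower) or by limma voom with quality weights (0.0% and 0.00589%). At an unadjusted p under 0.05, 29 members were higher (22 mitotic and 7 S-phase), as were 5.41% of all genes. In no member did the CPM of the 2 groups separate without overlap, against 0.0177% of all genes higher and 0.0884% lower. Genes of other lung cells moved with this difference: 8 of 8 endothelial genes were lower by value in silicon (median -1.33, all 8 at an unadjusted p under 0.05, 0 called), summing to 318 to 1106 CPM in silicon and 830 to 3230 CPM in mock, and 8 of 10 alveolar macrophage genes were lower (median -0.93, 0 called). The part of these cells in the result was not tested. The mitotic class mean was 3.17 ± 0.69 in silicon (SD, n = 7) and 2.18 ± 0.59 in mock (SD, n = 7), and the S-phase mean 3.75 ± 0.65 and 3.39 ± 0.12.

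Among the cyclins and their kinase, Cdk1 had 5.59, 13.5 and 24.2 CPM as lowest, median and highest value in silicon, against 4.11, 5.44 and 14.4 CPM in mock. Silicon replicate 1 was the lowest and replicate 3 the highest of its group, and mock replicate 6 was as high as the median of silicon, so that the groups overlapped. The log2 fold change of Cdk1 was 0.99 (SE 0.35, edgeR adjusted p = 0.170). Ccnb1, the cyclin that activates CDK1 at entry into mitosis, had 2.97, 11.2 and 23.2 CPM in silicon, against 1.10, 4.21 and 16.7 CPM in mock. Its log2 fold change was 1.29 (SE 0.58, edgeR adjusted p = 0.324), again with mock replicate 6 inside the silicon range.

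The proliferation marker Mki67 had 10.4, 33.5 and 49.1 CPM in silicon, against 7.32, 15.6 and 33.4 CPM in mock. Its log2 fold change was 0.89 (SE 0.49, edgeR adjusted p = 0.479). Top2a had 7.64, 28.5 and 50.5 CPM in silicon, against 7.15, 12.5 and 29.6 CPM in mock. For both genes the lowest silicon library was replicate 1, which lay near the bottom of the mock range.

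Of the spindle checkpoint and its target, Bub1b, which holds back anaphase until chromosomes are attached, had the smallest unadjusted p of all members. It had 3.36, 7.80 and 19.7 CPM in silicon, against 2.69, 4.74 and 7.69 CPM in mock (log2 fold change 0.96, SE 0.32, edgeR adjusted p = 0.158). Kif11, the motor that pushes spindle poles apart, had the next smallest, with 3.01, 8.95 and 14.5 CPM in silicon, against 2.03, 3.27 and 9.45 CPM in mock (1.1198, SE 0.38, edgeR adjusted p = 0.165). The median silicon library lay above all 7 mock libraries for Bub1b and above 6 of 7 for Kif11, and mock replicate 6 was the highest mock library of both. Cdc20 differed by 1.01 on the log2 scale (SE 0.54, edgeR adjusted p = 0.446).

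Among the mitotic kinases and the chromosomal passenger complex, Aurkb had the largest fold change of the 44 members. This kinase, which corrects faulty attachments, had 1.95, 6.24 and 19.05 CPM in silicon, against 1.42, 2.07 and 6.88 CPM in mock (log2 fold change 1.40, SE 0.54, edgeR adjusted p = 0.212). Its partner Birc5 (survivin) had 4.71, 16.0 and 28.9 CPM in silicon, against 3.41, 5.63 and 17.8 CPM in mock (1.18, SE 0.42, edgeR adjusted p = 0.179). Plk1 differed by 1.21 (SE 0.48) and the transcription factor Foxm1 by 0.86 (SE 0.34), with edgeR adjusted p = 0.225 and 0.235.

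The S-phase members were less even. Mcm5 had 5.94, 9.20 and 52.9 CPM in silicon, against 5.21, 8.63 and 12.8 CPM in mock (log2 fold change 0.97, SE 0.36, edgeR adjusted p = 0.193). Rrm2, the regulated subunit of ribonucleotide reductase, had 6.76, 8.91 and 44.9 CPM in silicon, against 2.41, 7.97 and 14.7 CPM in mock (1.06, SE 0.39, edgeR adjusted p = 0.183). For both genes the group medians were close together, and silicon replicates 3 and 6 stood far above the other silicon libraries, replicate 6 having 35.3 CPM of Mcm5 and 34.7 CPM of Rrm2. By role, the log2 fold changes ran from 0.23 to 0.97 for the 6 helicase subunits, from 0.45 to 1.06 for the 3 enzymes of nucleotide synthesis and from 0.02 to 0.89 for the 2 E cyclins, against 0.99 to 1.29 for the 4 mitotic cyclins and kinases and 0.76 to 1.14 for the 9 spindle motors and spindle proteins. Pcna differed by 0.16, Tyms, which makes thymidylate, by 0.45, and E2f1, which switches on S-phase genes, by 0.01 on the log2 scale.

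Without the 3 libraries over 100 CPM of Ccl19, which left 5 silicon and 7 mock mice, the classes parted. All 30 mitotic members were still higher by value, with a median of 0.71. The S-phase median was -0.07, with 5 of 14 members higher. The number of members at an unadjusted p under 0.05 was 1 in place of 29, with 2.19% of all genes higher, and 0 passed the adjusted test. Mki67 differed by 0.75 and Cdk1 by 0.75 on the log2 scale, whereas Mcm5 differed by -0.10, Rrm2 by 0.13 and Ccne1 by -0.06. The S-phase class mean was 3.39 ± 0.21 in those 5 silicon libraries (SD) and 3.39 ± 0.12 in mock (SD, n = 7). With all libraries, all 14 tested genes of the lymphoid list were higher by value in silicon (median 2.21, 0 called). The list includes Ccl19, the gene by which these libraries were set apart. The 15 genes of the list summed to between 77.2 and 3460 CPM in silicon and between 85.7 and 359 CPM in mock. The S-phase difference was thus near 0 without these libraries, and the mitotic one was reduced.

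**Figure D4:**
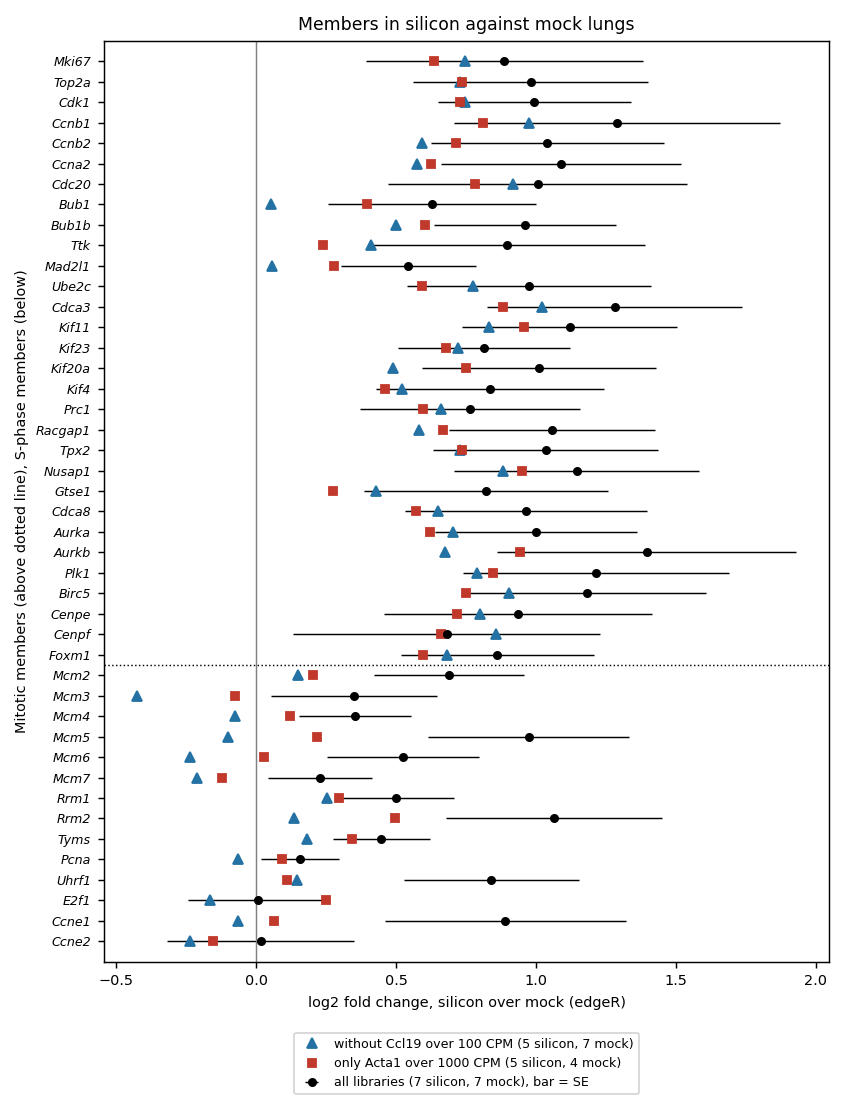
The log2 fold change of each member in silicon over mock, with all libraries (black, bar = SE), without the libraries over 100 CPM of Ccl19 (blue) and with only those over 1000 CPM of Acta1 (red). The blue S-phase points lie near 0, with a median of -0.07, and the blue and red mitotic points lie right of it, with medians of 0.71 and 0.67.

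Muscle RNA was present in 5 of 7 silicon and 4 of 7 mock libraries. Among those 9 alone, a comparison chosen after the data were seen, the mitotic median was 0.67 and the S-phase median 0.12. With log2 Acta1 and log2 Ccl19 as covariates, also chosen after the data were seen, the medians were 0.30 and 0.07. Without all libraries over 1000 CPM of Acta1 they were 1.29 and 0.73, but the silicon group then had replicates 1 and 3, the lowest and the highest of their group. The calls also turned on 1 control: without mock replicate 6, edgeR called 4 members higher, against 0.13% of all genes: Cdk1 (1.37, adjusted p = 0.0351), Ube2c (1.60, adjusted p = 0.0452), Cdca3 (1.85, adjusted p = 0.0317) and Birc5 (1.68, adjusted p = 0.0370), named after their values were seen. Ube2c, a ubiquitin-conjugating enzyme of the mitotic ligase, shares 22.8% of its exon bases with the muscle gene Tnnc2 on the opposite strand, and reads of the 2 genes cannot be told apart without strand.

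The other genes of the cycle, listed by role, were higher by value in silicon in the same way. Of 61 other mitotic genes all 61 were higher (median 0.78), of 52 other S-phase genes 46 (median 0.38), and of 22 regulators of G1, the phase before replication, 12 (median 0.17). None was called. Those of smallest p were the kinetochore genes Spc24 (0.88, SE 0.27) and Cenph (0.96, SE 0.31) and the condensin gene Ncapg2 (0.76, SE 0.24), with edgeR adjusted p = 0.125, 0.135 and 0.136.

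The comparison of GCR with mock asks the same of the mixed beam, and it uses the same mock mice as the silicon and gamma comparisons. Of the 30 mitotic members 3 were higher and 27 lower by value in GCR (median -0.23), and of the 14 S-phase members 4 were higher and 10 lower (median -0.15), against a median of -0.06 over all genes. edgeR called 0 of 44 members, whereas 8.03% of all genes were called higher and 8.52% lower. DESeq2 also called 0 (against 11% higher and 11.6% lower), as did limma voom (4.99% and 3.93%). At an unadjusted p under 0.05, 1 member, Cdc20, was lower, as were 19% of all genes. The mitotic class mean was 1.88 ± 0.43 in GCR (SD, n = 7) and 2.18 ± 0.59 in mock (SD, n = 7), and the S-phase mean 3.23 ± 0.33 and 3.39 ± 0.12.

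Cdc20 had 1.13, 2.95 and 16.5 CPM as lowest, median and highest value in GCR, against 2.52, 7.73 and 32.4 CPM in mock (log2 fold change -1.24, SE 0.55, edgeR adjusted p = 0.104). GCR replicate 4, the most deeply sequenced library, was above the mock median. Without it Cdc20 passed, at -1.75 (edgeR adjusted p = 0.0222, with 12.9% of all genes called lower). GCR replicates 2, 5 and 6, over 100000 CPM of Rn45s, had 1.32, 2.95 and 1.16 CPM of Cdc20. GCR replicate 1, not over that limit, had 1.13 CPM, and mock replicate 4, over it, had 2.52 CPM. Rn45s was higher by 1.36 on the log2 scale in GCR (SE 0.67, edgeR adjusted p = 0.148). Beyond a fit without the libraries over 100000 CPM of Rn45s, the part of Rn45s in the result was not tested. Ccnb1 had 0.316, 1.78 and 7.41 CPM in GCR, against 1.10, 4.21 and 16.7 CPM in mock (-1.03, SE 0.59, edgeR adjusted p = 0.211). The lowest value of Ccnb1 rested on 3 reads in GCR replicate 6, the shallowest library, in which Kif20a was at 0. Other members were close to mock: Mki67 differed by -0.02 (SE 0.50), Top2a by 0.20 (SE 0.42) and Bub1b by -0.05 (SE 0.32). Pcna had the smallest p of the S-phase members, with 19.4, 33.3 and 50.3 CPM in GCR, against 25.7, 43.7 and 56.1 CPM in mock (-0.20, SE 0.14, edgeR adjusted p = 0.318), followed by Mcm4 (-0.27, SE 0.20). The ranges of all these genes overlapped between the groups.

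No GCR library exceeded 1000 CPM of Acta1, against 4 of 7 mock libraries. Acta1 fell by 8.43 on the log2 scale (SE 2.29, edgeR adjusted p = 0.0176), and 9 of 10 skeletal muscle and 9 of 9 squamous epithelium genes were called lower. Their summed levels were 36.8 to 101 CPM and 2.75 to 25.7 CPM in GCR, against 23.5 to 40814 CPM and 2.64 to 1648 CPM in mock. The mitotic median differed between the fits, and the part of muscle tissue in it was not tested further. With Acta1 and Ccl19 as covariates the mitotic median was 0.47, without libraries over 1000 CPM of Acta1 -0.03, and without mock replicate 6 it was 0.12. Among the other cycle genes, E2f2 rose by 0.94 (SE 0.30, edgeR adjusted p = 0.0317), and Rfc4, a clamp loader subunit, fell by 1.18 (SE 0.40, edgeR adjusted p = 0.0407). Of the G1 regulators, Tfdp1, the partner of E2F, fell by 0.84 (SE 0.22, edgeR adjusted p = 0.0145) and Lin9, of the complex that switches on mitotic genes, fell by 0.75 (SE 0.23, edgeR adjusted p = 0.0283). These were the only ones called, 0 of 61 other mitotic, 2 of 52 other S-phase and 2 of 22 G1 genes. Of all genes, 8.03% were called higher and 8.52% lower.

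**Figure D5:**
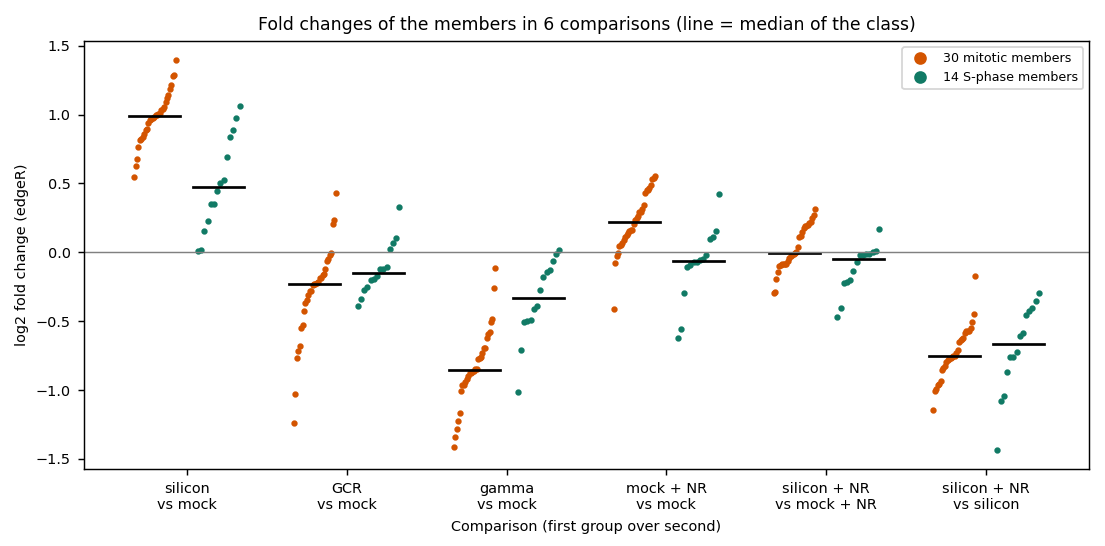
Each point is a member, at its log2 fold change in 6 comparisons (first group over second), with mitotic members left and S-phase members right in each pair and a line at the class median. The medians are 0.99 and 0.47 in silicon over mock, -0.85 and -0.33 in gamma over mock and -0.75 and -0.66 in silicon + NR over silicon; no member passed the edgeR test in any of them.

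In gamma against mock, all 30 mitotic members were lower by value (median -0.85), as were 13 of 14 S-phase members (median -0.33), against a median of -0.01 over all genes. edgeR called 0 of 44 members, against 0.0295% of all genes called higher and 0.0% lower, and 0 were called by DESeq2 (0.601% and 0.925%) or limma voom (0.772% and 0.63%). At an unadjusted p under 0.05, 8 members were lower (6 mitotic and 2 S-phase), as were 5.17% of all genes. The mitotic class mean was 1.47 ± 0.34 in gamma (SD, n = 5) and 2.18 ± 0.59 in mock (SD, n = 7), and the S-phase mean 3.06 ± 0.15 and 3.39 ± 0.12.

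Mki67 was at 7.68, 8.84, 6.12, 4.07 and 9.89 CPM in gamma replicates 1 to 5, against 7.32, 15.6 and 33.4 CPM as lowest, median and highest value in mock. All 5 gamma libraries were below the mock median, and 3 of them were above the lowest mock library (log2 fold change -1.23, SE 0.56, edgeR adjusted p = 0.447). Ccnb1 was at 2.59, 2.13, 2.49, 0.469 and 2.39 CPM in gamma, against 1.10, 4.21 and 16.7 CPM in mock (-1.42, SE 0.67, edgeR adjusted p = 0.471). Gamma replicate 4 was the lowest library of its group for both genes. Replicate 3 was next lowest for Mki67 but not for Ccnb1. Replicates 3 and 4 were the libraries over 10000 CPM of Nppa (17519 and 24514 CPM). All 8 cardiac muscle genes were higher by value in gamma than in mock (median 1.81, 0 called). Beyond a fit without the libraries over 10000 CPM of Nppa, the part of heart tissue in these values was not tested. Cenpe, a motor that carries chromosomes to the spindle centre, differed by -1.28 (SE 0.54, edgeR adjusted p = 0.407).

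In CPM from library totals, Cdca8 and Ccne2 did not overlap between the groups. Each was lower in all 5 gamma than in all 7 mock libraries, as were 0.583% of all genes tested. They also had the smallest p of the mitotic and of the S-phase members. Cdca8 (borealin, of the chromosomal passenger complex) was at 2.05, 2.97, 2.46, 1.25 and 2.19 CPM in gamma, against 3.18, 4.55 and 11.2 CPM in mock (log2 fold change -1.34, SE 0.49, edgeR adjusted p = 0.325). Ccne2, a cyclin E of the entry into S phase, was at 1.19, 0.724, 0.81, 1.13 and 1.04 CPM in gamma, against 1.19, 1.48 and 4.06 CPM in mock (-1.01, SE 0.37, edgeR adjusted p = 0.325). The gap between the highest gamma and the lowest mock library of Ccne2 was small. After the TMM scaling used for the tests, Ccne2 overlapped between the groups. Gamma replicates 4 and 5 then had a log2 CPM of 0.249 and 0.235, above mock replicate 1 at 0.216. Ccne2 shares 17.4% of its exon bases with Ints8 on the opposite strand.

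Of the S-phase members, Mcm5 was at 9.51, 6.51, 6.57, 4.50 and 5.93 CPM in gamma, against 5.21, 8.63 and 12.8 CPM in mock (-0.50, SE 0.39, edgeR adjusted p = 0.724). Uhrf1, which copies DNA methylation to the new strand, differed by -0.71 (SE 0.35), Tyms by 0.02 and Pcna by -0.07 on the log2 scale. E2f1 was spread widely, at 13.8, 9.97, 7.23, 2.44 and 3.93 CPM in gamma, against 4.66, 7.72 and 10.05 CPM in mock. No gamma library exceeded 1000 CPM of Acta1. The skeletal muscle genes summed to 20.5 to 151 CPM in gamma, against 23.5 to 40814 CPM in mock, and the squamous genes to 2.81 to 29.9 CPM, against 2.64 to 1648 CPM. Without the libraries over 1000 CPM of Acta1, which left 3 mock mice, the mitotic median was -0.51 and the S-phase median -0.36. With Acta1 and Ccl19 as covariates they were -0.08 and -0.12. Without mock replicate 6 the mitotic median was -0.48. Without gamma replicate 5, whose RNA went against its sex label, it was -0.91 and the S-phase median -0.29. Of the other cycle genes, 57 of 61 mitotic and 43 of 52 S-phase genes were lower by value (medians -0.62 and -0.28), 0 of them called.

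Silicon + NR against silicon asks whether the supplement altered the lungs of irradiated mice. All 30 mitotic (median -0.75) and all 14 S-phase members (median -0.66) were lower by value in silicon + NR, against a median of -0.05 over all genes. edgeR called 0 members, against 0.0% of all genes in either direction, and at an unadjusted p under 0.05 16 members were lower (6 mitotic and 10 S-phase), as were 7.4% of all genes. DESeq2 called 0 members, against 0.183% of all genes higher and 1.9% lower. limma voom with quality weights called 32 lower (27 mitotic and 5 S-phase), with 11.5% of all genes higher and 13.2% lower. That fit gave weights of 0.364 and 0.468 to silicon + NR replicates 1 and 4, the highest of their group, and 0.326 to silicon replicate 3, the highest of all for most members. In it the medians were -1.37 and -0.47.

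Mki67 had 7.45, 8.82 and 49.8 CPM as lowest, median and highest value in silicon + NR, against 10.4, 33.5 and 49.1 CPM in silicon (log2 fold change -0.71, SE 0.53, edgeR adjusted p = 0.611). In silicon + NR it was high in replicates 1 and 4 and low in the other 4, whereas in silicon it was low in replicate 1 alone. Bub1b had 2.66, 3.66 and 8.20 CPM in silicon + NR, against 3.36, 7.80 and 19.7 CPM in silicon (-0.94, SE 0.35, edgeR adjusted p = 0.233). Racgap1, which prepares the final cut between daughter cells, had 3.52, 4.79 and 13.8 CPM in silicon + NR, against 4.95, 11.5 and 29.9 CPM in silicon (-1.01, SE 0.39, edgeR adjusted p = 0.269).

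Ccne1 had the smallest p of all members, with 0.643, 1.24 and 2.46 CPM in silicon + NR, against 1.15, 1.56 and 10.1 CPM in silicon (-1.44, SE 0.46, edgeR adjusted p = 0.149). Mcm5 had 5.45, 8.11 and 10.5 CPM in silicon + NR, against 5.94, 9.20 and 52.9 CPM in silicon (-1.08, SE 0.38, edgeR adjusted p = 0.202). For both genes the medians were close and the silicon maximum came from replicate 3. No silicon + NR library exceeded 100 CPM of Ccl19, against 2 of 7 silicon libraries, and the lymphoid genes summed to 25.7 to 193 CPM in silicon + NR and to 77.2 to 3460 CPM in silicon.

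Without the libraries over 100 CPM of Ccl19 the S-phase median was -0.11 and the mitotic median -0.46, with 0 members at an unadjusted p under 0.05, against 2.39% of all genes higher and 2.85% lower. Within the libraries over 1000 CPM of Acta1 (2 silicon + NR and 5 silicon mice) the mitotic median was 0.50 and the S-phase median -0.06, so that the direction of the mitotic class turned. Within the 24 others (4 silicon + NR and 2 silicon mice) the medians were -1.77 and -1.24, and Ccna2 (-2.33, edgeR adjusted p = 0.0484) and Rrm2 (-2.35, edgeR adjusted p = 0.0421) were called lower, as were 0.933% of all genes. That value rests on silicon replicates 1 and 3. With Acta1 and Ccl19 as covariates the medians were -0.04 and -0.11. Of the other cycle genes, 59 of 61 mitotic (median -0.62), 46 of 52 S-phase (median -0.41) and 15 of 22 G1 genes (median -0.18) were lower by value, 0 of them called. Whether the supplement or the dissected tissue goes with the difference cannot be told apart in these libraries.

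Silicon + NR against mock + NR showed little difference. Of the mitotic members 14 were higher and 16 lower (median -0.01), and of the S-phase members 2 were higher and 12 lower (median -0.04). edgeR called 0 members, against 0.0% of all genes in either direction, and 0 members had an unadjusted p under 0.05 (0.247% of all genes higher and 1.91% lower). DESeq2 called 0 members (0.0% and 0.00589% of all genes), and limma voom 0 (0.0% in either direction). The mitotic class mean was 2.24 ± 0.97 in silicon + NR (SD, n = 6) and 2.36 ± 0.76 in mock + NR (SD, n = 5), with wide spread in both. In silicon + NR the 2 libraries with muscle RNA were the highest, whereas in mock + NR the order was replicate 2 (muscle RNA, 3.46), replicate 4 (Ccl19, 2.72), replicate 1 (2.14), replicate 5 (muscle RNA, 2.04) and replicate 3 (1.44). The median turned with single libraries, being -0.49 without silicon + NR replicate 1 and 0.40 without mock + NR replicate 2. Within the libraries over 1000 CPM of Acta1 (2 against 2) it was 0.67, and within the others -0.56. All 14 tested lymphoid genes were lower by value in silicon + NR (median -2.29, 12 at an unadjusted p under 0.05, 0 called), with mock + NR replicate 4 among the mock + NR libraries. Without it and the 2 silicon libraries over 100 CPM of Ccl19 the medians were 0.07 for mitotic and 0.03 for S-phase members. The S-phase members of smallest p were Ccne1 (-0.47, SE 0.48) and Rrm2 (-0.41, SE 0.43), and the mitotic ones the checkpoint kinase Bub1 (0.27, SE 0.42) and Gtse1 (0.32, SE 0.49), with edgeR adjusted p = 1 for all of them.

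The test of whether the silicon difference depended on NR (silicon + NR over mock + NR, less silicon over mock) gave medians of -0.999 for the mitotic and -0.58 for the S-phase members. edgeR called 0 members, against 0.0% of all genes in either direction, and 0 were called by DESeq2 (0.63% of all genes higher and 1.3% lower) or limma voom (0.0% in either direction). At an unadjusted p under 0.05, 8 members were lower, as were 4.92% of all genes. Rrm2 had the smallest p (-1.47, SE 0.58, edgeR adjusted p = 0.286), and the next were Racgap1 (-1.25, SE 0.55), Tyms (-0.58, SE 0.26), Mcm5 (-1.17, SE 0.53) and Aurkb (-1.69, SE 0.80). Without the libraries over 100 CPM of Ccl19 the S-phase median was 0.10 and the mitotic median -0.70. Without those over 1000 CPM of Acta1, edgeR called Cdca3 (-2.56, adjusted p = 0.0498) and Rrm2 (-2.75, adjusted p = 0.0249) lower, as were 2.68% of all genes. With Acta1 and Ccl19 as covariates the medians were -0.28 and 0.08.

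Mock + NR against mock asks about the supplement alone. Of the mitotic members 26 were higher (median 0.22), and of the S-phase members 4 (median -0.06). edgeR called 0 members, against 0.0% of all genes in either direction, DESeq2 called 0 (1.45% of all genes higher and 2.03% lower) and limma voom 0 (4.25% and 1.6%). At an unadjusted p under 0.05, 1 member, E2f1, was lower, as were 7.71% of all genes. E2f1 was at 2.86, 4.02, 3.34, 5.89 and 6.27 CPM in mock + NR replicates 1 to 5, against 4.66, 7.72 and 10.05 CPM as lowest, median and highest value in mock (log2 fold change -0.62, SE 0.27, edgeR adjusted p = 0.226). Mki67 was at 10.4, 43.7, 3.16, 28.0 and 12.8 CPM in mock + NR, against 7.32, 15.6 and 33.4 CPM in mock. Ccne2 differed by -0.56 (SE 0.36), Kif11 by 0.56 (SE 0.42) and Cdca3, which marks a mitotic inhibitor for destruction, by 0.53 (SE 0.50). Mock + NR held both the lowest Mki67 library of the series and one of its highest. The tissue lists differed too, with 0 called: 8 of 8 endothelial genes were lower by value in mock + NR (median -1.54) and 6 of 6 ciliated cell genes higher (median 1.08), all at an unadjusted p under 0.05, and 14 of 14 lymphoid genes were higher (median 0.96). Their part in the result was not tested, except that without the libraries over 100 CPM of Ccl19 the medians were 0.15 for mitotic and -0.18 for S-phase members. Without mock + NR replicate 2 the mitotic median was -0.15, and without mock replicate 6 it was 0.49.

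Sex made no difference that passed the test. In females against males, 17 of 30 mitotic (median 0.03) and 7 of 14 S-phase members (median 0.01) were higher by value. Without gamma replicate 5, 16 mitotic (median 0.00) and 7 S-phase members (median 0.01) were higher, again with 0 called. With it, edgeR called 0 members, against 0.0295% of all genes in each direction, as did DESeq2 (0.0353% in each direction) and limma voom (0.0471% higher and 0.0353% lower). At an unadjusted p under 0.05 there were 0 members, against 1.49% of all genes higher and 1.66% lower. The smallest p were those of Kif11 (0.35, SE 0.25) and Ccne1 (-0.29, SE 0.29).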

How the data were processed

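Per the labels' protocols, lung RNA was extracted with Trizol, and libraries were made with the SMART-seq v4 and Nextera XT kits, which do not mark strand. The submitters' processing notes list FastQC 0.11.4, MultiQC 1.12, Trimmomatic 0.36, STAR 2.5.2, HTSeq 0.13.5 and the build mm10 without their settings. The authors deposited raw read counts, as whole numbers for each gene symbol. The labels name no molecular identifiers, so counts are of reads, not molecules. Errors given are SD over mice or SE of the fit.

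CPM were computed here from library totals, and CPM per kb with exon lengths of GENCODE M21. Tests used edgeR 4.0.16 (R 4.3.3, quasi-likelihood, TMM, filterByExpr, 16977 genes) with the 6 groups and sex over all 37 libraries. Every p was Benjamini-Hochberg adjusted over all genes and called under 0.05. The fit was tested on simulated data. Class means are means of log2 CPM (prior count 2), and since genes differ in length they are compared only between libraries. No libraries of a group were near-copies of each other, since a chi-square of their counts was at least 19.18 times its degrees of freedom.

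Alternatives were DESeq2 1.42.0, limma 3.58.1 voom, RLE size factors, no filter, no sex term, only the groups compared, prior count 0.5, and fits without libraries over 100 CPM of Ccl19, 1000 of Acta1, 100000 of Rn45s or 10000 of Nppa, or without each library in turn. Fits with only libraries over 1000 CPM of Acta1, and with log2 (CPM + 1) of Acta1 and Ccl19 as covariates, were added after the data were seen. Members and lists were chosen with earlier results of these data known. Named genes are 17 fixed members, all members called or else the 2 mitotic and 2 S-phase ones of smallest p, the 3 of smallest p of other lists, and tissue genes; others are named as chosen after their values were seen. Correlations pooled over all libraries were planned but are given within 2 sets of libraries, since these stand apart.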

Additional observations from a re-analysis of the deposited data

Results flagged for a closer look

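Within a group, a library was marked where the gap to its nearest neighbour, divided by the range of the group, exceeded Dixon's 95% value. Of 114 groups of values tested (17 members and 2 class means, in 6 groups of libraries), 10 were marked, and chance marks about 1 in 20, or 5.7. All values are log2 CPM.

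Mock replicate 6 stood above the 6 other mock libraries in 4 measures. Its Cdk1 was 3.81 (others 2.06 to 2.81), its Birc5 4.12 (others 1.68 to 2.70), its Foxm1 2.0 (others 0.72 to 1.14) and its mean of the 30 mitotic members 3.42 (others 1.60 to 2.26). Its Acta1 was 21179 CPM and its Krt5 303 CPM, and mock replicate 3 had 23256 and 426 CPM with a mitotic mean of 2.15. The part of these tissue genes in the result was not tested here.

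Silicon replicate 1 stood below the other silicon libraries in 3 members. Its Top2a was 2.99 (others 4.60 to 5.48), its Ccnb1 1.65 (others 3.22 to 4.37) and its Cdc20 2.45 (others 4.21 to 5.10). It was the only silicon library over neither limit, with 22.2 CPM of Acta1 and 8.39 CPM of Ccl19.

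Gamma replicate 4 stood below the 4 other gamma libraries, with Ccnb1 at -0.90 (others 0.99 to 1.39) and Aurkb at -0.75 (others up to 1.27). It had 24514 CPM of Nppa, and gamma replicate 3 had 17519 CPM. Plk1 in GCR replicate 1 was -1.13 (others 1.10 to 2.74), from 8 reads.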

How the results depend on the processing

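Of the medians, class means and counts of called members, 377 kept their value within the spread between libraries, or their count, under the alternatives that leave out no single library, and 33 moved. That spread was the SD between libraries pooled over groups, 0.662 for the mitotic, 0.361 for the S-phase and 0.530 for all members. It was wider than several class medians, so a median near 0 could change sign and still count as kept. No member was called by edgeR with all libraries, so no call could be lost. Some fits gained calls and some class medians turned, as given here. Without libraries over 100 CPM of Ccl19 the S-phase median was -0.071 in silicon over mock, -0.107 in silicon + NR over silicon and 0.098 in the NR interaction. With Acta1 and Ccl19 as covariates the medians of mitotic, S-phase and all members were 0.295, 0.069 and 0.256 in silicon over mock, -0.039, -0.109 and -0.052 in silicon + NR over silicon, and -0.284, 0.075 and -0.170 in the interaction. The mitotic and all-member medians then were 0.471 and 0.399 in GCR and -0.080 and -0.091 in gamma over mock. Without libraries over 1000 CPM of Acta1 the same 3 medians were -1.770, -1.244 and -1.623 in silicon + NR over silicon and -1.940, -1.016 and -1.717 in the interaction, with 2 members called in each. With only those libraries they were 0.504, -0.061 and 0.318 in silicon + NR over silicon and -0.063, 0.087 and 0.045 in the interaction, and in silicon + NR over mock + NR the mitotic and all-member medians were 0.671 and 0.599. limma voom called 32 members in silicon + NR over silicon. Leaving out 1 library at a time gave 0 to 4 called members in silicon over mock, 0 to 1 in GCR over mock and 0 in the other comparisons. The causes of these shifts were not tested. No paired analysis was possible because replicate numbers only name a mouse, in accession order. Depth limits low members most: Ccnb1 rested on 3 reads and Kif20a on 0 in the shallowest library, GCR replicate 6.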
